A study of Rattus norvegicus with 18 samples.

Results

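Genes that make and load peptides for MHC class I were followed across RNA-seq libraries of Rat1 fibroblasts with and without MYC. The group was chosen by name, as B2m, Tap1, Tap2, Tapbp, Psmb8, Psmb9, Psmb10, Erap1 and Nlrc5. Of these 9 symbols, 8 stood in the deposited table of 13188 genes, and Nlrc5 was not analysed here. All 18 libraries came from HO15.19, a Rat1 fibroblast line labelled myc-/-, and fell into 6 groups of 3. One group was myc-/- cells without transfection (myc-/-), and another was the same cells 48 h after transfection with 40 nM control siRNA (myc-/- siCtrl). The other groups carried retroviral human MYC: untransfected (myc-/- + MYC), or 48 h after 40 nM of control siRNA (myc-/- + MYC siCtrl) or of an siRNA, siAHR-2 or siAHR-5, that targets the aryl hydrocarbon receptor (AHR). All cells were grown in 10% fetal bovine serum, and the 3 libraries of a group share 1 cell line, so that p-values measure the spread between these libraries, which may be technical.

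MHC class I molecules show short peptides from inside the cell to CD8+ T cells. Proteasomes cut proteins into peptides, and in the immunoproteasome the catalytic subunits Psmb8, Psmb9 and Psmb10 take the place of the constitutive Psmb5, Psmb6 and Psmb7. Tap1 and Tap2 form the transporter that carries peptides into the endoplasmic reticulum. There Erap1 trims them, and Tapbp (tapasin) holds the heavy chain, which is paired with the light chain B2m, next to the transporter until a peptide is bound. Most of these genes are known to respond to interferons through interferon regulatory factors, NF-kB and the transactivator Nlrc5.

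The promoters of these genes are shown because their members moved together in parts of the data, and because an interferon response element was found in most of them. RefSeq promoter windows of the rat assembly GRCr8, 300 bases from 250 before to 50 after the gene start, were found for 7 of the 9 members. The authors aligned the reads to another build, rn6, so the positions given here belong to the windows and not to the measurements. In the lines that follow, 5′ to 3′ along each gene, capitals mark each match to the interferon-stimulated response element (ISRE, searched as GAAANNGAAA on both strands). Tap1 and Psmb9 are printed whole because they lie head to head, with starts 457 bases apart and windows that share 44 bases. For the others, 80 bases around the ISRE match are shown.

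Tap1, chr20:4668494-4668793, strand -: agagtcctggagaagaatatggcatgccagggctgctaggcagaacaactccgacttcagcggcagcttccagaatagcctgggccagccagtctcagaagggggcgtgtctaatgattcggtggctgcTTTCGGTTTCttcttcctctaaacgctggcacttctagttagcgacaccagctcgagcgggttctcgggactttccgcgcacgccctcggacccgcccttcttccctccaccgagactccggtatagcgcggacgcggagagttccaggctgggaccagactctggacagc

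Psmb9, chr20:4668750-4669049, strand +: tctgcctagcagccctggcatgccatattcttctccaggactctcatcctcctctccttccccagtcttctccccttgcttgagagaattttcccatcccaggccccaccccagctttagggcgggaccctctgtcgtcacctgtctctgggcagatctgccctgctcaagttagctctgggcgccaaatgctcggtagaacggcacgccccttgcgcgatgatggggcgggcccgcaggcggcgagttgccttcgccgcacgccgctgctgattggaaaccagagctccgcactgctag

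Tap2, chr20:4652293-4652372, strand -: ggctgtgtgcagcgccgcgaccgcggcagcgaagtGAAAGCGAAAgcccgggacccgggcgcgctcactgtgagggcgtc

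Psmb8, chr20:4656991-4657070, strand -: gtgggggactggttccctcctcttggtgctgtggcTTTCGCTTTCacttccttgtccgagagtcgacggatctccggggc

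Tapbp, chr20:4967856-4967935, strand -: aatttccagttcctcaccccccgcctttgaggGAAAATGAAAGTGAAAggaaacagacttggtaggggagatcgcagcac

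B2m, chr3:129549145-129549224, strand +: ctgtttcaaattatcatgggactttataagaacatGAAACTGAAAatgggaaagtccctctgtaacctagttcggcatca

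Psmb10, chr19:50743293-50743372, strand -: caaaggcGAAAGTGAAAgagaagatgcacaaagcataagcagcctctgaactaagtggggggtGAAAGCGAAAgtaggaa

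An ISRE match was present in 6 of the 7 windows, all but that of Psmb9, and in 3.92% of all 33469 rat promoter windows of the same length. Tap1 and Psmb8 hold it on the opposite strand, Psmb10 holds 2 separate matches, and the 2 matches of Tapbp overlap each other. The Tap1 match, at -121 to -112 from the Tap1 start, lies between the starts of Tap1 and Psmb9 but outside the Psmb9 window. An NF-kB site was matched in 3 of the 7 windows (B2m, Tap1 and Tapbp) against 7.51% of all windows. The gamma-activated site GAS (TTCNNNGAA, both strands) was matched in 1 of 7, that of Psmb8, against 8.87% of all windows. The MYC E-box CACGTG was matched in 0 of 7 against 6.42%, and the AHR element TNGCGTG in 0 of 7 against 4.89%. A match describes these letters only, and absence of a match says nothing of whether a factor binds.

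The deposited values were not on one scale: myc-/- siCtrl and myc-/- + MYC formed a 6-library set, the remaining groups a 12-library set, and groups were compared only within a set. Values are deposited log2 expression, whose read depth is unknown, and are not per length, so levels are compared between groups and not between genes. In both sets the MYC-expressing group was tested against myc-/- cells, but the transfection label changed with MYC. The siCtrl label lay on the myc-/- side of the 6-library set and on the MYC side of the 12-library set. Within a set, MYC and transfection cannot be told apart. This rests on the labels of both myc-/- groups, which could not be checked from the values; were they exchanged, transfection would be alike on both sides of each set. A gene was called changed at a fold of at least 1.5 in either direction, read from the log2 fold change (log2FC), with a Benjamini-Hochberg adjusted p of at most 0.01 over all genes in limma. Ahr, the siRNA target, ranged from 13.22 to 13.34 in the siCtrl libraries with MYC; siAHR-2 brought it to 11.97 to 12.03 and siAHR-5 to 11.76 to 11.95. Human MYC from the transgene was not analysed. The rat Myc symbol still gave a signal in myc-/- cells (10.82 to 10.94 in the 12-library set), in a gene part that the labels do not give. This symbol was lower in the MYC-expressing group of both sets, past the cutoffs (log2FC -1.26 in the 6-library set and -2.68 in the 12-library set). It ranged from 8.16 to 8.27 in myc-/- + MYC siCtrl, and the cause was not tested. Of the fibroblast markers, Vim lay above 18 log2 units in every group, while Col1a2 averaged between 3.64 and 4.08.

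**Figure D1:**
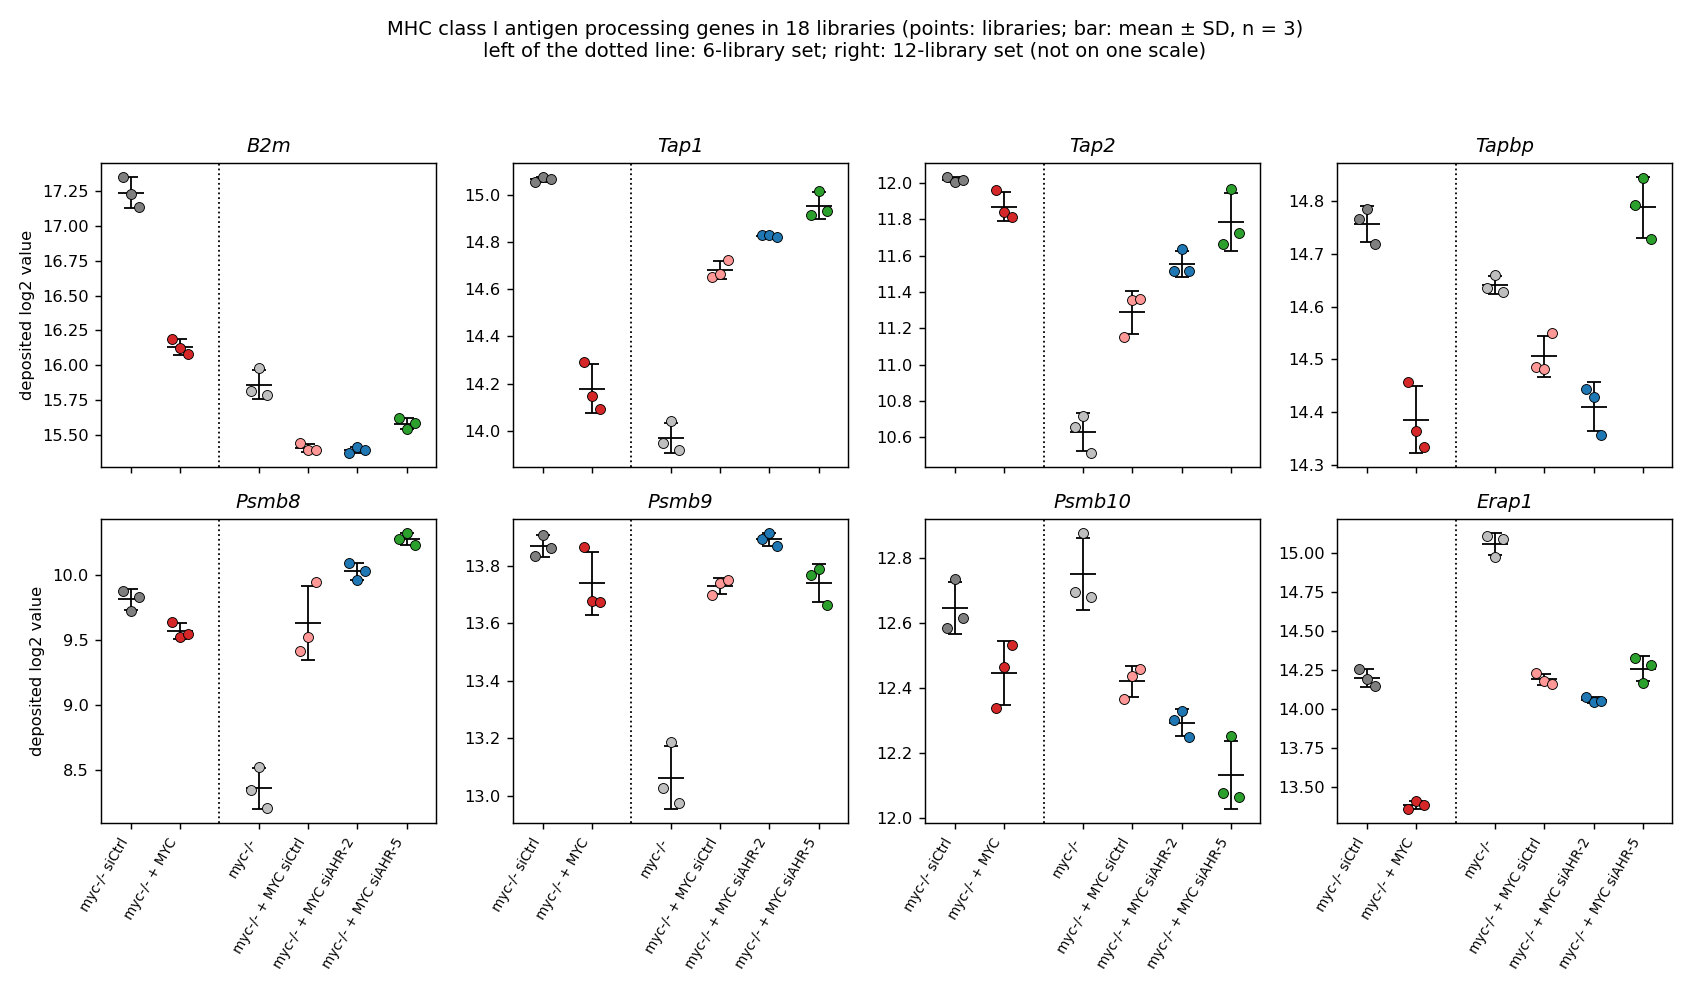
Deposited log2 value (y axis) of 8 antigen processing genes in the 3 libraries of each of 6 groups (x axis), with the mean and SD as a bar. The dotted line divides the 6-library set from the 12-library set, which are not on one scale; Tap1, Tap2, Psmb8 and Psmb9 are lower in myc-/- than in the other groups of the 12-library set, and Erap1 is higher.

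In the 6-library set, B2m, Tap1 and Erap1 fell with MYC and no member rose. B2m, the invariant light chain of every class I molecule, was 17.35, 17.23 and 17.14 in the myc-/- siCtrl libraries and 16.19, 16.13 and 16.08 in the myc-/- + MYC libraries. All MYC libraries lay about 1 log2 unit below all controls, a log2FC of -1.11 ± 0.0502 (SE; adjusted p = 3.13e-09), or 0.464 of the control level. Tap1, an ATP-binding subunit of the peptide transporter, was 15.05, 15.08 and 15.07 without MYC and 14.29, 14.15 and 14.09 with it. The controls were within 0.1 of each other and the groups were far from overlapping (log2FC -0.89 ± 0.0447, adjusted p = 7.89e-09). Erap1, the trimming aminopeptidase, was 14.26, 14.20 and 14.15 without MYC and 13.36, 13.41 and 13.39 with it (log2FC -0.82 ± 0.0340, adjusted p = 1.59e-09).

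The remaining 5 members missed the fold cutoff in the 6-library set. Tapbp had a log2FC of -0.37, Psmb8 of -0.24, Psmb10 of -0.20, Tap2 of -0.15 and Psmb9 of -0.13. Their adjusted p-values ran from 2.19e-06 for Tapbp to 0.0310 for Psmb9, and Psmb9 alone had overlapping groups, because 1 of its MYC libraries (13.87) lay among the controls (13.84 to 13.91). Tap2, which forms the transporter with Tap1, averaged 12.02 in the controls and 11.87 with MYC, a far smaller step than that of its partner.

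Counted over the group, 3 of 8 members passed both cutoffs in the 6-library set, all lower. Over all genes 26.8% passed, 12.5% higher and 14.3% lower. All 8 log2FC were below 0 as deposited (Psmb9 was at 0.0532 under quantile normalization), with a median of -0.31 against 0.00 over all genes. Groups did not overlap for 7 of 8 members, but this was so for 78.8% of all genes, and an adjusted p of at most 0.05 with no fold cutoff was reached by 8 of 8 members and by 76.2% of all genes.

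In the 12-library set Psmb8, Tap1, Psmb9 and Tap2 rose with MYC and Erap1 fell, so that of the 3 genes called in the 6-library set Tap1 turned and Erap1 did not. Psmb8, the immunoproteasome subunit with chymotrypsin-like activity, was 8.35, 8.53 and 8.21 in myc-/- and 9.41, 9.52 and 9.95 in myc-/- + MYC siCtrl. The third MYC library was the highest, and all of them were above every control (log2FC 1.27 ± 0.161, adjusted p = 7.45e-04), a ratio of 2.40. Tap1 was 13.95, 14.04 and 13.92 without MYC and 14.65, 14.66 and 14.73 with it (log2FC 0.71 ± 0.0417, adjusted p = 2.61e-05). Psmb9, another catalytic subunit of the immunoproteasome, went from 13.03, 13.19 and 12.98 to 13.70, 13.74 and 13.75 (log2FC 0.67 ± 0.0588, adjusted p = 1.45e-04). In these 3 genes every MYC library lay above every control.

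Tap2 was 10.66, 10.72 and 10.51 in myc-/- cells and 11.15, 11.36 and 11.36 in myc-/- + MYC siCtrl cells (log2FC 0.66 ± 0.0829, adjusted p = 6.99e-04). With this both subunits of the transporter were higher by nearly the same amount in this set. Erap1 went the opposite way, from 15.11, 14.98 and 15.09 to 14.23, 14.18 and 14.16 (log2FC -0.87 ± 0.0438, adjusted p = 1.38e-05). B2m (-0.45, adjusted p = 6.91e-04), Psmb10 (-0.33, adjusted p = 0.00437) and Tapbp (-0.14, adjusted p = 0.00731) had negative log2FC that missed the fold cutoff.

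In all, 4 members of 8 passed as higher and 1 as lower in the 12-library set, where 25.5% of all genes passed, 10.8% higher and 14.7% lower. The median log2FC of the members was 0.26, with a range from -0.87 to 1.27, and that of all genes was 0.00. Groups did not overlap for 8 of 8 members and for 70.5% of all genes, and 8 of 8 members and 64.7% of all genes had an adjusted p of at most 0.05.

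**Figure D2:**
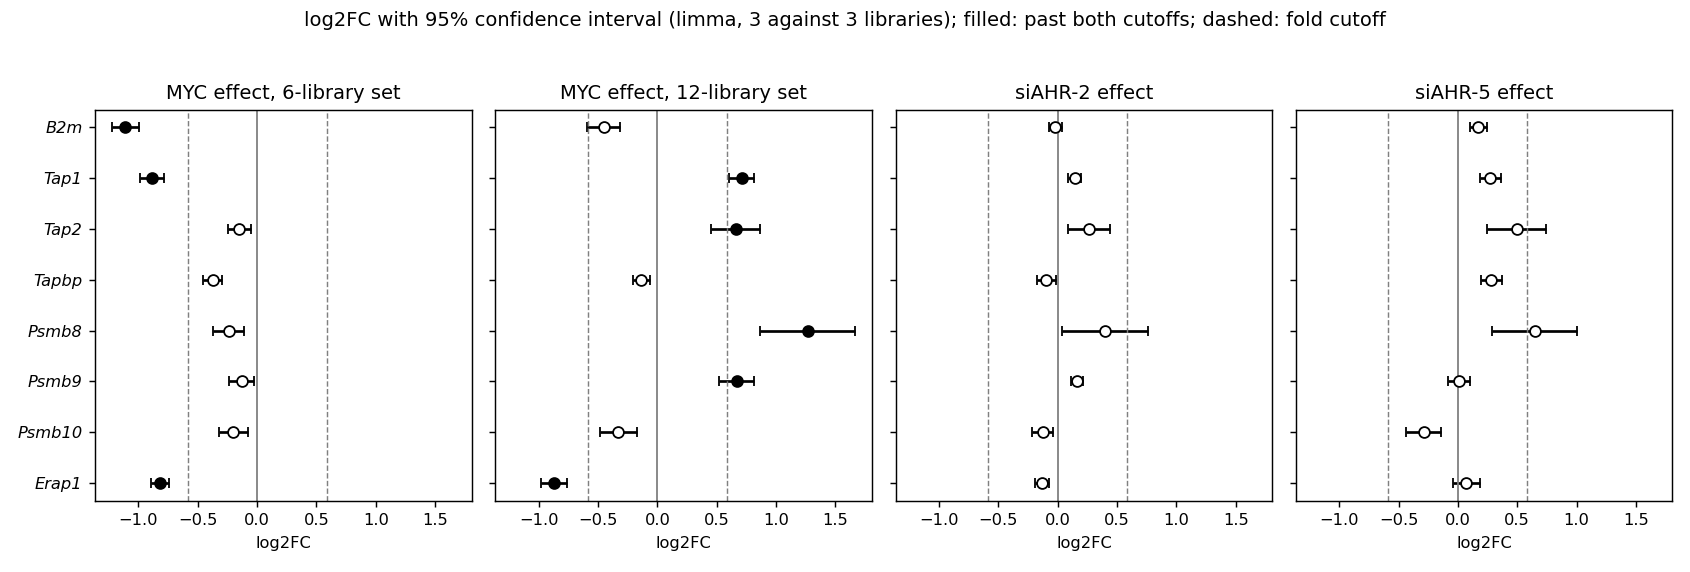
log2FC (x axis, log2 units) of each member with its 95% confidence interval in 4 comparisons of 3 against 3 libraries; filled points passed both cutoffs and dashed lines mark the fold cutoff. B2m, Tap1 and Erap1 are filled on the negative side in the 6-library set, Psmb8, Tap1, Psmb9 and Tap2 on the positive side in the 12-library set, and none is filled for either AHR siRNA.

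Whether a member moved differently in the sets was tested directly, as the log2FC of the 12-library set minus that of the 6-library set over 12 libraries. A shift in scale between the sets cancels in this contrast, whereas a stretch of the scale would not. The difference passed the cutoffs for 5 of 8 members, all positive, against 16.5% of all genes, 6.79% positive and 9.67% negative. It was 1.60 ± 0.0687 for Tap1 (adjusted p = 7.27e-11), whose sign turned from negative to positive, both past the cutoffs. For Psmb8 it was 1.51 ± 0.162 (adjusted p = 1.76e-06), for Tap2 0.81 ± 0.0934 (adjusted p = 3.66e-06) and for Psmb9 0.80 ± 0.0817 (adjusted p = 1.04e-06). B2m differed by 0.66 ± 0.0819 (adjusted p = 8.13e-06), with a log2FC of -1.11 in one set and -0.45 in the other.

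Erap1 was lower with MYC in both sets, and no difference between the sets was detected (-0.05, 95% interval -0.18 to 0.07, adjusted p = 0.466). The same holds for Psmb10 (-0.13, interval -0.32 to 0.06, adjusted p = 0.229), and Tapbp differed by 0.24 (adjusted p = 0.00186), short of the fold cutoff. Members thus fell into 4 genes (B2m, Tapbp, Psmb10 and Erap1) with lower means in the MYC-expressing libraries of both sets, and 4 genes (Tap1, Tap2, Psmb8 and Psmb9) with higher means in the siCtrl-labelled libraries of both sets, whether those were with or without MYC. This split holds for the values as deposited. Under quantile normalization Psmb9 was at 0.0532 in the 6-library set and so in neither kind, Tapbp was at -0.14 and -0.00644 in the sets of 6 and 12 libraries, and B2m was at -0.27 in the latter. Over all genes, 5247 of 13188 were lower with MYC in both sets and 1500 were higher in the siCtrl-labelled libraries of both.

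The 4 genes of the latter kind are neighbours. In the RefSeq gene order of GRCr8 they follow each other on chromosome 20 as Tap2, Psmb8, Tap1 and Psmb9, inside the class II region of the rat MHC. RT1-DOb and RT1-DMb, which code for class II chains of the peptide-loading machinery, flank them. Of the 8 nearest protein-coding genes on each side, 10 of 16 stood in the table. In the 12-library set, 1 of these 10 rose (Brd2, a bromodomain protein, log2FC 0.60) and 1 fell (the class II chain RT1-Db1, log2FC -1.04). These counts are near the shares of all genes in this set, where 10.8% rose and 14.7% fell. RT1-DOb had 0.05 and RT1-DMb -0.45. In the 6-library set, 4 of the 10 fell (14.3% of all genes), the class II chains RT1-Da, RT1-Db1, RT1-Ba and RT1-Bb. Col11a2 and Rxrb on the far side rose, 2 of the 10 (12.5% of all genes). Tap1 and Psmb9, which are transcribed away from each other from the same stretch, had log2FC of 0.71 and 0.67 in the 12-library set but -0.89 and -0.13 in the 6-library set.

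**Figure D3:**
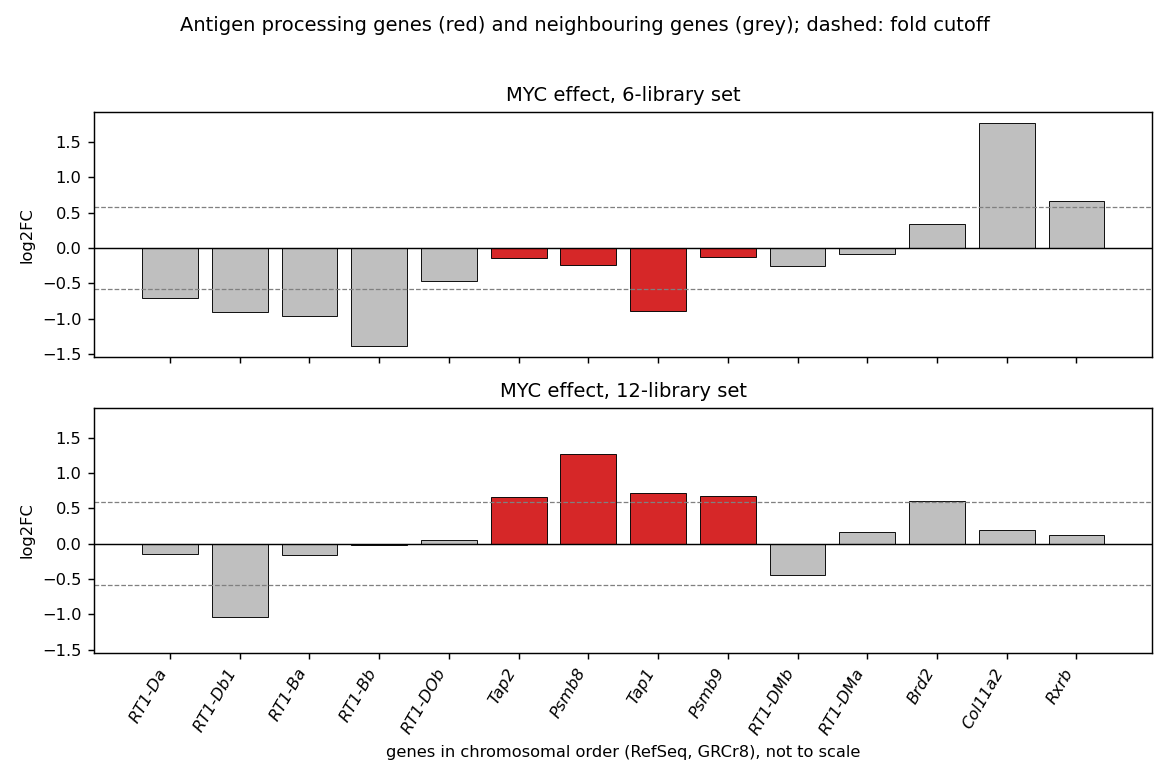
log2FC (y axis, log2 units) with MYC of Tap2, Psmb8, Tap1 and Psmb9 (red) and of neighbouring genes in the table (grey), in chromosomal order and not to distance (x axis), for the 6-library set (top) and the 12-library set (bottom). The 4 red bars are all below 0 at the top and all above the fold cutoff at the bottom.

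Immunoproteasome subunits were also read against the constitutive subunits they replace, as a log2 ratio within each library, a measure added after the values were seen. The ratio is not per length, so only its change between groups is given. The ratio of Psmb8 to Psmb5 was -6.38, -6.45 and -6.55 in myc-/- and -4.95, -4.92 and -4.44 in myc-/- + MYC siCtrl, a difference of 1.69 without overlap. In the 6-library set this ratio differed by -0.04, with overlapping groups. The ratio of Psmb9 to Psmb6 was higher by 0.15 with MYC in the 12-library set (-0.35 to -0.29 against -0.22 to -0.12) and lower by 0.58 in the 6-library set (0.60 to 0.69 against -0.03 to 0.23). Psmb6 itself had log2FC of 0.52 in the 12-library set and 0.45 in the 6-library set. For Psmb10 to Psmb7 the differences were 0.04 in the 12-library set, with overlap, and 0.22 in the 6-library set. Over these 6 and 6 further ratio comparisons with the AHR siRNAs, each of 3 against 3 libraries, the exact permutation test (2-sided) cannot go below 0.1, which every ratio without overlap reached.

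With the AHR siRNAs the ratio of Psmb8 to Psmb5 had higher values than with siCtrl: -4.33 to -4.24 with siAHR-2 and -3.87 to -3.73 with siAHR-5, differences of 0.50 and 0.98 from siCtrl. Psmb5 itself had a log2FC of -0.11 with siAHR-2 and -0.34 with siAHR-5, which enters these differences. The ratio of Psmb9 to Psmb6 differed by -0.03 with siAHR-2, with overlap, and by -0.12 with siAHR-5, without overlap. For Psmb10 to Psmb7 the differences were 0.12 with siAHR-2, without overlap, and -0.02 with siAHR-5, with overlap. The siCtrl library that stood apart in Psmb8 (-4.44) was nearest to the siAHR-2 libraries.

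**Figure D4:**
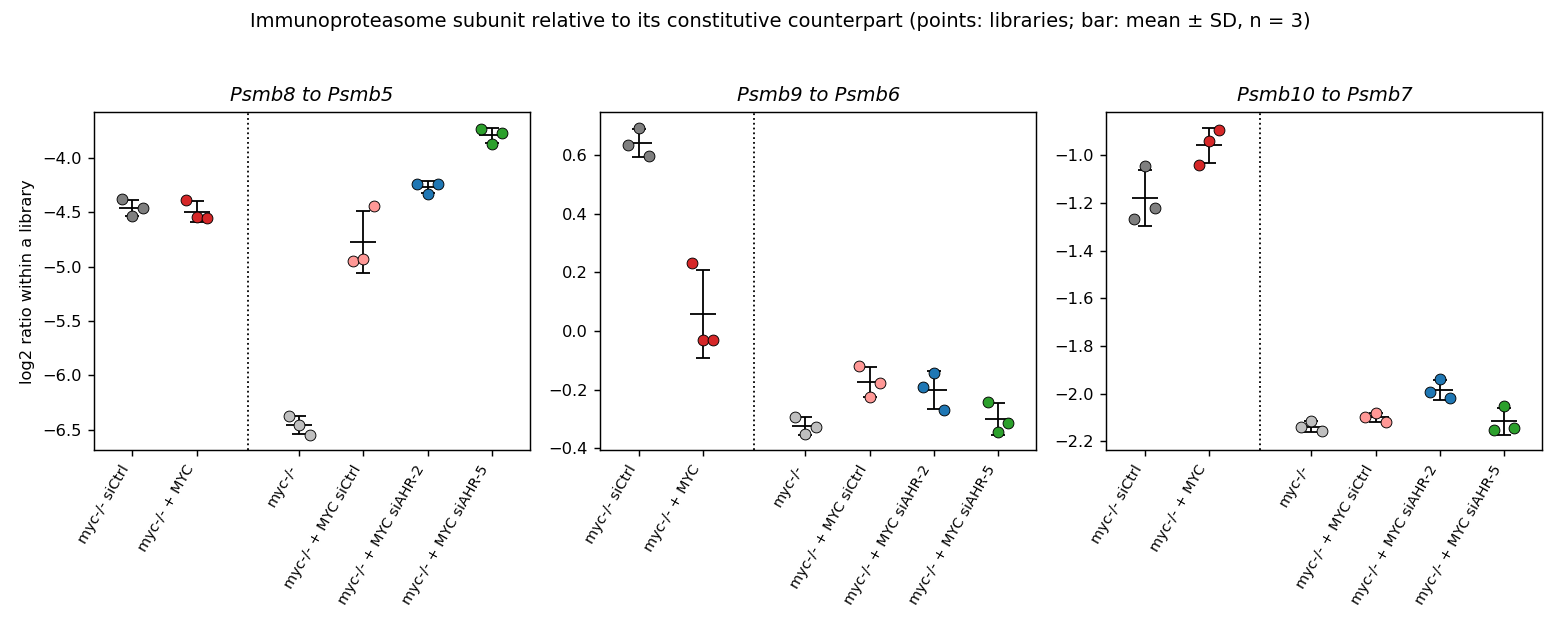
log2 ratio within a library (y axis) of each immunoproteasome subunit to its constitutive counterpart, in the 3 libraries of 6 groups (x axis) with mean and SD; the dotted line divides the sets. Psmb8 to Psmb5 is lowest in myc-/- and highest with siAHR-5 in the 12-library set, while Psmb10 to Psmb7 stays between -2.16 and -1.94 there.

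With the AHR siRNAs in MYC-expressing cells no member passed both cutoffs. With siAHR-2 the count was 0 of 8, where 0.47% of all genes passed (0.159% higher, 0.311% lower); 7 members and 40.4% of all genes had an unadjusted p of at most 0.05 in limma. At an adjusted p of at most 0.05 with no fold cutoff there were 5 members, against 29.3% of all genes. They were Tap2 (log2FC 0.27), Psmb9 (0.16) and Tap1 (0.15) with higher values, and Erap1 (-0.13) and Psmb10 (-0.13) with lower ones. The member with the largest log2FC was Psmb8 (0.40 ± 0.146), whose libraries (9.96 to 10.09) lay just above the highest siCtrl library (9.95) but whose adjusted p was 0.100; Tapbp had -0.10 (adjusted p = 0.0765). Tap1 was 14.83, 14.83 and 14.82 with siAHR-2, above all siCtrl libraries, and Psmb9 was 13.89, 13.92 and 13.87, also above all of them. Groups did not overlap for 7 of 8 members and 43.3% of all genes; B2m overlapped (15.37 to 15.41 against 15.39 to 15.44).

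With siAHR-5 the count was likewise 0 of 8, against 2.32% of all genes (1.47% higher, 0.849% lower), with 6 members and 47.8% of all genes at an unadjusted p of at most 0.05. The same 6 had an adjusted p of at most 0.05, against 39.2% of all genes. Psmb8 was 10.28, 10.32 and 10.23, above every siCtrl library, with a log2FC of 0.65 ± 0.144 and an adjusted p of 0.0175. Without the third siCtrl library, which stood apart at 9.95, the log2FC was 0.81 and the adjusted p 0.00297, past both cutoffs, and over all alternatives the adjusted p ran from 2.99e-05 to 0.0614. Tap2 had 0.50 (adjusted p = 0.0126), Tapbp 0.28 (adjusted p = 0.00286), Tap1 0.27 (adjusted p = 0.00289) and B2m 0.17 (adjusted p = 0.00585), while Psmb10 had -0.29 (adjusted p = 0.0134). Psmb9 (0.01, 95% interval -0.09 to 0.11) and Erap1 (0.07, interval -0.05 to 0.18) overlapped with siCtrl, and groups did not overlap for 6 of 8 members and 50.5% of all genes.

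Both siRNA comparisons share the siCtrl libraries, so the siRNAs were also compared with each other. There, 0 of 8 members passed the cutoffs against 2.18% of all genes (1.33% higher and 0.849% lower with siAHR-5), 8 (46.8% of all genes) had an unadjusted p of at most 0.05 and 6 (39.1% of all genes) an adjusted p of at most 0.05. Tapbp was 14.79, 14.84 and 14.73 with siAHR-5 and 14.44, 14.43 and 14.36 with siAHR-2. The siCtrl libraries (14.48 to 14.55) lay between them, and the siRNAs differed by 0.38 ± 0.0382 (adjusted p = 0.00112). Psmb9 went the other way, with siAHR-5 0.15 below siAHR-2 (adjusted p = 0.0223). Psmb8 (0.25), Erap1 (0.20), B2m (0.19) and Tap1 (0.13) were higher with siAHR-5, and Tap2 (0.23, adjusted p = 0.0936, and 0.14 without the siAHR-5 library that was highest in Tap2) and Psmb10 (-0.16, adjusted p = 0.0753) did not reach 0.05.

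Class I heavy chains, the proteins that hold the peptide, fell for some of their genes in the 6-library set. Of 31 RT1 heavy chain genes in the table, 9 fell and 0 rose in the 6-library set, where 14.3% of all genes fell and 12.5% rose, so that the share past the cutoffs in either direction was near that of all genes (26.8%). Among the 9 were RT1-CE1 (log2FC -1.54), RT1-CE3 (-1.15), RT1-A1 (-1.05) and RT1-A2 (-1.05). RT1-A2 was between 15.88 and 16.01 in the controls and between 14.77 and 15.06 with MYC. None of the 31 passed in the 12-library set by limma, while 13 had an unadjusted p of at most 0.05 and 13 an adjusted p of at most 0.05, 4 higher and 9 lower, where 64.7% of all genes reached the latter. The median heavy chain log2FC was -0.08 in the 6-library set and -0.04 in the 12-library set, but 12 of the 31 averaged below 6 in every group, and none of the 9 was among them. For the 19 with a mean of at least 6 over all libraries, a split made after the values were seen, the medians were -0.61 and -0.19. The difference between the sets passed for 4 of 31 (16.5% of all genes), all positive: RT1-CE1 (1.74), RT1-A3 (0.82), RT1-A1 (0.81) and RT1-A2 (0.71). With siAHR-2 1 heavy chain passed (RT1-CE14, 0.70), which did not hold when any 1 library was left out, and with siAHR-5 none did, 6 (47.8% of all genes) having an unadjusted and 4 (39.2% of all genes) an adjusted p of at most 0.05. Reads can be split between heavy chain genes that are alike in sequence. How alike the 31 are was not measured, so single heavy chain values are uncertain.

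Other steps of the pathway were read from lists of genes chosen for their roles. The 3 constitutive catalytic subunits and 4 proteasome activators had 0 genes past the cutoffs in either MYC comparison; at an unadjusted p of at most 0.05, and likewise at an adjusted one (76.2% and 64.7% of all genes in the sets of 6 and 12 libraries), the subunits had 3 in each set, and the activators 3 in the 6-library set and 2 in the 12-library set. Among 5 peptide loading chaperones, Pdia3, the disulfide isomerase bound to tapasin, fell in both sets (log2FC -0.68 and -0.93). Calr (-0.91) and Hspa5 (-0.86), a lectin chaperone and the main HSP70 of the endoplasmic reticulum, fell in the 12-library set. In all, 1 of the 5 chaperones fell in the 6-library set (14.3% of all genes) and 3 in the 12-library set (14.7% of all genes), and 0 rose. Of 8 peptide trimming enzymes, Erap1 included, Thop1, a cytosolic peptidase that can destroy class I peptides, rose in both sets (0.91 and 0.81), and Erap1 fell. This is 1 of 8 in each direction, where 12.5% and 10.8% of all genes rose and 14.3% and 14.7% fell in the sets of 6 and 12 libraries. Sec61a1, the pore of the endoplasmic reticulum translocon and 1 of 3 translocon genes, fell in the 12-library set (-0.62) and with siAHR-5 (-1.01, where 0.849% of all genes fell). It was the only gene of these lists past the cutoffs with either AHR siRNA.

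Interferon signalling genes and regulators of class I fell more than they rose in both MYC comparisons. In the 6-library set, 11 of 28 fell (14.3% of all genes) and 1 rose (12.5% of all genes), among them Irf7 (log2FC -1.60), the kinase Jak2 (-1.26) and the NF-kB subunit Rela (-0.99), against Irf3 (1.02). In the 12-library set, 12 of 28 fell (14.7% of all genes) and 0 rose (10.8% of all genes), among them Jak2 (-1.57), Stat2 (-1.27), Nfkb2 (-1.03) and the interferon gamma receptor chain Ifngr1 (-0.95). Their median log2FC was -0.37 and -0.27. None of the 28 passed with either AHR siRNA by limma, where 17 with siAHR-2 (40.4% of all genes) and 19 with siAHR-5 (47.8% of all genes) had an unadjusted p of at most 0.05; at an adjusted p of at most 0.05, reached by 29.3% and 39.2% of all genes, there were 8 higher and 3 lower with siAHR-2 and 13 higher and 4 lower with siAHR-5.

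Interferon-stimulated genes, a list that shares no gene with the members, also differed between the sets. In the 6-library set, 7 of 19 fell (14.3% of all genes) and 0 rose, led by the antiviral Rsad2 (log2FC -1.75), Bst2 (-1.45), Gbp2 (-1.33) and Isg15 (-1.25). In the 12-library set, 8 rose (10.8% of all genes) and 1 fell (14.7% of all genes): the RNA sensor Ddx58 (1.72), Oasl (1.42) and the chemokine Cxcl10 (1.34) led the rise, and Ifit2 fell by 3.15. The difference between the sets passed for 15 of 19 (16.5% of all genes), 14 of them positive (6.79% of all genes), with Oasl at 2.43, Cxcl10 at 2.36 and Rsad2 at 1.66, and Ifit2 at -2.65. Of these, Rsad2 and Bst2 averaged below 6 in both groups of the 12-library set and Ifit3 in at least 1 of them, so that their difference rests largely on the 6-library values. Among the 14 genes at or above 6 in both groups, a split made after the values were seen, the difference passed with a positive value for 11 and a negative one for 1. In 12 of the 19 genes the siCtrl-labelled libraries had the higher mean in both sets, as in 1500 of all 13188 genes. This count goes by sign alone, and the low Ifit3 and Bst2 are among the 12. With siAHR-2 1 of the 19 fell (Oasl, -0.71), where 0.311% of all genes fell, and 0 rose. At an adjusted p of at most 0.05 in limma, 3 were higher and 2 lower with siAHR-2 (29.3% of all genes). With siAHR-5 2 of the 19 rose, Gbp5 (0.82) and Gbp2 (0.64), where 1.47% of all genes rose, and 0 fell. With siAHR-5 12 had an adjusted p of at most 0.05 (39.2% of all genes), all higher. Compared directly, 4 of the 19 were higher with siAHR-5 than with siAHR-2 and 0 lower, where 1.33% and 0.849% of all genes were: Oasl (log2FC 1.18), Cxcl10 (0.82), Gbp5 (0.68) and Gbp2 (0.61). Psmb8, Tap2, Tap1 and Tapbp had their highest mean values of the 12-library set with siAHR-5, while B2m, Psmb9, Psmb10 and Erap1 did not. Gbp5 was also highest with siAHR-5 (10.50, against 9.68 with siCtrl), but Usp18 was highest with siAHR-2 (10.87) and Mx2 with siCtrl (8.06).

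**Figure D5:**
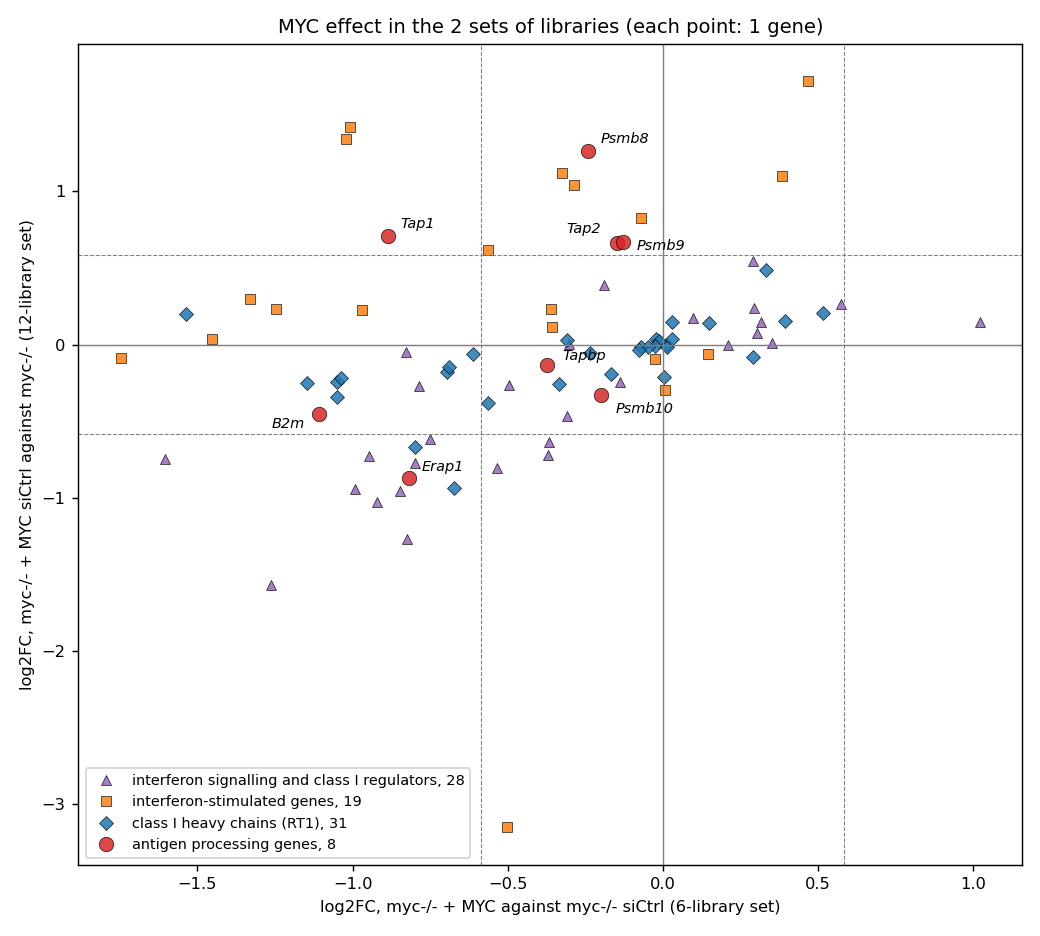
log2FC with MYC in the 6-library set (x axis) and in the 12-library set (y axis), in log2 units, for 8 antigen processing genes, 31 heavy chains, 19 interferon-stimulated genes and 28 regulators; each point is 1 gene and dashed lines mark the fold cutoff. Tap1 lies beyond the cutoff on both axes at the upper left, together with Oasl and Cxcl10, and Erap1 lies beyond it on both at the lower left.

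Genes listed as cell type markers moved with some of these results, in libraries that all came from 1 cell line. Of 13 leukocyte and antigen presenting cell markers in the table, 6 fell (14.3% of all genes) and 0 rose with MYC in the 6-library set, namely Cd3e (log2FC -2.09), Cd74 (-1.21) and 4 class II chains, and the summed level of the list, as a log2 value, went from 12.26 to 12.52 down to 11.42 to 11.58. In the 12-library set 3 of 13 fell (14.7% of all genes) and 0 rose, namely Cd3e (-1.13), RT1-Db1 (-1.04) and Ciita (-0.72), and the summed level went from 9.85 to 9.89 down to 9.28 to 9.34, while Tap1, Tap2, Psmb8 and Psmb9 rose. It was 9.40 to 9.42 with siAHR-2 and 9.37 to 9.48 with siAHR-5. Ptprc, which defines leukocytes, ranged from 4.46 to 4.65 in the 6-library set and from 2.84 to 2.88 in the 12-library set. Averages below 6 were found for 4 of 13 markers in the 6-library set and 7 to 9 of 13 in the 12-library set. No gene of the list was at exactly 0. However, Ptprc averaged 2.84 in both myc-/- + MYC siCtrl (SD 1.77e-04) and myc-/- + MYC siAHR-2 (SD 3.15e-04). Such repeated values may mark a gene without reads, so a value above 0 does not by itself show detected RNA. Fibroblast markers fell for 4 of 8 genes in each MYC comparison, the same 4 in both. In the 6-library set (14.3% of all genes) they were Fn1 (log2FC -1.76), Col1a1 (-1.73), Pdgfrb (-1.72) and Thy1 (-1.15). Col3a1 rose there (1.30), where 12.5% of all genes rose. In the 12-library set (14.7% of all genes) they were Col1a1 (-5.95), Pdgfrb (-3.08), Thy1 (-2.20) and Fn1 (-1.80), and 0 rose. The summed level of the fibroblast markers went from 20.80 to 20.82 down to 19.87 to 19.95 in the 6-library set. It went from 21.95 to 22.18 down to 20.21 to 20.24 in the 12-library set. With siAHR-5, Thy1 rose among the fibroblast markers (0.75, from 11.34 to 11.44 up to 12.12 to 12.18), and against siAHR-2 Thy1 (0.67) and Pdgfrb (0.64) were higher. With siAHR-2 none of the 8 passed by limma, 2 having an unadjusted p of at most 0.05, both lower. The summed level was 19.98 to 20.02 with siAHR-2 and 19.94 to 19.96 with siAHR-5. Of the epithelial markers, Krt8 alone rose in both MYC comparisons (1.70 and 1.17), 1 of the 4 genes in the table (12.5% and 10.8% of all genes), and 0 fell. In the 6-library set Krt19 had -0.27 (adjusted p = 0.0107 in limma), Epcam -0.01 and Cdh1 0.004. The median log2FC of the list was -0.003 in the 6-library set and 0.01 in the 12-library set. The summed level, Krt8 included, went from 8.18 to 8.25 up to 8.63 to 8.81 in the 6-library set. It went from 7.76 to 7.92 up to 8.77 to 9.11 in the 12-library set. Of 4 endothelial markers Tek rose in the 6-library set (1.61), where 12.5% of all genes rose, and 0 fell. At an adjusted p of at most 0.05 in limma (76.2% of all genes), 2 were higher there, Tek and Pecam1 (0.20), and 2 lower, Cdh5 (-0.54) and Kdr (-0.03). None passed in the 12-library set by limma, 1 having an unadjusted p of at most 0.05. The summed level went from 8.09 to 8.20 up to 8.44 to 8.53 in the 6-library set. It went from 9.28 to 9.43 up to 9.51 to 9.63 in the 12-library set. The part of these markers in the results was not tested, and in bulk RNA fewer cells of a type and less RNA per cell cannot be told apart.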

How the data were processed

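RNA-seq of 18 libraries of HO15.19 Rat1 fibroblasts was used, and groups and replicate numbers were taken from the sample labels. The authors enriched polyadenylated RNA, prepared libraries with a kit that does not mark strand, aligned reads to rn6 with HISAT2 2.1.0 and normalized with DESeq2. The read counter and annotation are not given in the sources used here. The authors deposited normalized log2 values for 13188 genes, 1 column per library. The values are named log CPM, but taken off the log scale they sum to between 86.3 and 161 times a CPM total. Counts and depth cannot be taken from them, so the precision rests on the spread of 3 libraries. Value columns without a sample numbered 0.

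The values were fitted as deposited with limma 3.58.1 in R 4.3.3 (lmFit, eBayes with a mean-variance trend), only the compared groups entering a fit, with Benjamini-Hochberg adjustment over all 13188 genes. A call needed a fold of at least 1.5 and an adjusted p of at most 0.01. Fits were tested on simulated data. Alternatives were an adjusted p of at most 0.05 without a fold cutoff, all 18 libraries in one fit, no trend, quantile normalization, median centring, a filter at a mean log2 of 1, a pseudocount of 1, a replicate block, and each library left out in turn. Members and lists were chosen with earlier results of these data known. All members are named; of each list, up to 4 genes past the cutoffs are named per comparison, largest first, and neighbours, markers and constitutive subunits are named for position or role. For each member, the 3 genes with the smallest root mean square difference of set-centred values over 18 libraries are named as most alike. Promoter windows and gene order came from RefSeq tables of GRCr8. Figures were drawn with matplotlib in Python. Ifnar2, Relb, Suz12, Xaf1 and Krt18 were not analysed here.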

Additional observations from a re-analysis of the deposited data

Results flagged for a closer look

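The MYC comparison differed between the 2 sets of libraries, by the test of the difference itself in limma, for 5 of 8 antigen processing genes and 16.5% of all genes. Markers of cell types differed too. Of 8 fibroblast markers 4 had a negative difference (9.67% of all genes), down to -4.22, and 0 a positive one. Of 13 leukocyte and antigen presenting cell markers 4 had a positive difference (6.79% of all genes), up to 1.37, and 0 a negative one. Their part in the differences of the members was not tested. The log2FC of the 12-library set minus that of the 6-library set was 1.60 for Tap1 (from -0.89 to 0.71), 1.51 for Psmb8 (from -0.24 to 1.27), 0.81 for Tap2 (from -0.15 to 0.66), 0.80 for Psmb9 (from -0.13 to 0.67) and 0.66 for B2m (from -1.11 to -0.45). The groups behind these values did not overlap in either set, except for Psmb9 in the 6-library set; groups did not overlap for 78.8% of all genes in the 6-library set and 70.5% in the 12-library set. The sets are on different scales. A shift of scale cancels in each log2FC, and the part of a stretch of the scale in these differences was not tested. Under quantile normalization Psmb9 was at 0.0532 in the 6-library set. The sets also differ in which side of the comparison carried the siCtrl label, which cannot be told apart from whatever else differs between them. Whether the labels of the myc-/- siCtrl and myc-/- libraries are right, or exchanged between the sets, could not be checked from the values; if exchanged, transfection would not differ within a set and the grouping by siCtrl label would not hold.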

How the results depend on the processing

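Members past the cutoffs numbered 3 in the 6-library set, 5 in the 12-library set and 5 for the difference, and did not change when any library was left out. At an adjusted p of at most 0.05 with no fold cutoff they were 8 in each MYC comparison, 5 with siAHR-2, 6 with siAHR-5 and 6 for siAHR-5 against siAHR-2. For siAHR-5 the count went from 0 to 1 with all 18 libraries in one fit and with median centring, and ranged from 0 to 1 when a library was left out; the 1 came from leaving out the third siCtrl library, which is the highest in Psmb8. Replicate numbers did not pair the samples (mean correlation of deviations -0.03 to 0.10 over the comparisons, with at most 4 of 6 libraries closest to their own number), and the replicate block left the counts of members at 3, 5, 0, 0, 5 and 0, while the count of all genes for siAHR-2 went from 62 to 0. Signs turned for Psmb9 in the 6-library set (0.0532) and B2m with siAHR-2 (0.0454) under quantile normalization, and under median centring for Psmb9 with siAHR-5 (-0.0507) and the Erap1 difference (0.0309); Psmb9 with siAHR-5 also ranged from -0.0158 to 0.0472 when a library was left out. Quantile normalization also moved Tapbp from -0.37 to -0.14 in the 6-library set and from -0.14 to -0.00644 in the 12-library set, and B2m from -0.45 to -0.27 in the latter. The cause was not tested. None of the turned values passed both cutoffs before or after. Of the log2FC of single members, 352 kept direction and call under the alternatives other than leaving out a library, 28 came past the threshold and 4 turned; with a library left out 332 kept both, 1 came past and 3 turned. Scaling moved the median of all genes by less than 0.1. Depth is unknown, so no limit from it can be given.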

Other observations

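Some genes that are not members stayed close to members over all 18 libraries, measured as the root mean square difference of log2 values after centring each set on its mean. Closest to Erap1 were Rnf2 (0.0580), Nmt2 (0.0592) and Inpp5f (0.0602), closest to Psmb10 were Ndufs3 (0.0573), Eif3f (0.0580) and the constitutive subunit Psmb5 (0.0583), and closest to B2m were the cytokine Csf3 (0.0697), Akr1b8 (0.0723) and Tspan5 (0.0742). Tapbp was nearest to Rhoc (0.0636), Lactb (0.0680) and Prkcd (0.0706), and Psmb9 to Nuf2 (0.0696), Oard1 (0.0727) and Mxi1 (0.0761). Tap2 had Cdkn2c (0.126), Slc2a9 (0.126) and Etv4 (0.128) at the smallest differences. Tap1 was nearest to Sik1 (0.117), Crlf2 (0.117) and Pmaip1 (0.120), and Psmb8 to Dgka (0.187), Il7 (0.197) and Gbp5 (0.200), of which Gbp5 is an interferon-induced GTPase. Among the members themselves, Tap2 and Psmb9 were nearest each other (0.175), and B2m and Erap1 were nearest each other (0.208). Tapbp and Psmb10 were also nearest each other (0.248). That difference is larger than the root mean square of either gene around its own set means (0.163 for Tapbp and 0.206 for Psmb10). These are descriptions over libraries that share groups, with no test.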
